A study of Mus musculus with 6 samples.

Results

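The data on 9 genes of leukocyte adhesion were examined among the 26012 genes measured in infarcted mouse hearts. They were chosen by name as the selectins *Sele* and *Selp*, the selectin ligands *Selplg*, *Cd44* and *Spn*, and the immunoglobulin-family adhesion molecules *Icam1*, *Icam2*, *Vcam1* and *Pecam1*. All 9 were found in the deposited values. RNA came from the ventricles of 6 male C57BL/6 mice, 8 weeks old when the LAD coronary artery was ligated to cause myocardial infarction (MI). Each heart received 10 μg of mimic in a lipid carrier by injection into the heart at surgery, a route that selects no cell type, and was collected at day 4 after MI. One group of 3 received control mimic and the other group of 3 received miR-19a/19b mimics, which are synthetic RNA duplexes that act in cells as the mature miRNAs. Both groups had the same infarction and injection, so neither stands for an uninjured heart. Whole ventricular tissue was used, so fewer cells of a type and less RNA per cell cannot be told apart.

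Leukocytes leave the blood in steps. E-selectin (*Sele*) and P-selectin (*Selp*) on the vessel wall catch passing cells by sugars carried on PSGL-1 (*Selplg*), CD44 and CD43 (*Spn*), integrins then bind ICAM and VCAM molecules to hold the cells still, and PECAM-1 helps them cross between endothelial cells. In the infarcted heart this route brings in neutrophils first and monocytes after them.

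In these hearts, *Spn* was lower in every miR-19a/19b heart than in any control heart, but its adjusted p-value in the main test, limma, was 0.547. It was under 0.05 in 3 of 17 alternatives, namely DESeq2, edgeR's exact test and the limma fit without miR-19a/19b replicate 3. None of the other 8 genes had an adjusted p-value under 0.05 in any of the tests run. *Spn* encodes CD43, a heavily sialylated mucin of the leukocyte surface, and its normalized count in the miR-19a/19b group was 0.62 of that in control (95% interval 0.51 to 0.76). The selectin and immunoglobulin-family genes *Sele*, *Selp*, *Icam1*, *Icam2*, *Vcam1* and *Pecam1* had fold changes between 0.86 and 1.06, and in each the groups overlapped.

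The injected miRNAs are shown first, because the letters they can pair with were then searched for in the 9 genes. RefSeq (GRCm38.p6) places mature miR-19a on chromosome 14 from 115044048 to 115044070 and miR-19b on the same chromosome from 115044358 to 115044380, both on the plus strand. A second miR-19b copy lies on chromosome X. Capitals mark the seed, bases 2 to 8, which pairs with target transcripts.
mmu-miR-19a-3p: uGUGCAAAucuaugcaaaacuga
mmu-miR-19b-3p: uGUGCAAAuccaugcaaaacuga
The seeds were identical, and the only difference was U11C, counted from 1 at the 5′ end with the miR-19a base first.

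A match was the 8-mer TTTGCACA or the 7-mers TTTGCAC and TTGCACA, which the 8-mer contains, on the transcript strand. In the longest annotated 3′ UTR (GENCODE M21), 0 of the 9 genes held a match, against 19.3% of 15866 tested genes with a 3′ UTR. These UTRs ran from 151 bases in *Icam2* to 2992 in *Cd44*, and the median over all genes was 1261 bases. When every annotated 3′ UTR was searched, 2 of the 9 held one, *Spn* and *Selp*, against 21.1% of all genes. Both matches, in capitals, are printed 5′ to 3′ on the strand of the gene. *Spn* is shown as the only one of the 9 genes whose groups did not overlap, and *Selp* as the other with a match.
Spn: ttttattctatTTTGCACtggtatgcatt
Selp: aatgctccgaaTTGCACAtggacacagca
The *Spn* site (chr7:127132702-127132730, GRCm38, minus strand) lies in exon 4 of a transcript annotated for nonsense-mediated decay, 983 bases past the end of the protein-coding transcript with the longest 3′ UTR, whose 2444 bases hold no match. For *Selp* (chr1:164143900-164143928, plus strand), the 7 bases are in the 3′ UTR of another transcript annotated for nonsense-mediated decay but are coding bases of the full-length transcript. Gene counts do not separate transcripts, so the use of either site was not measured. A match is a run of letters and not evidence of binding.

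Depth was even, with 19398196 to 23645308 reads on genes per heart, and the values are normalized counts, that is, read counts scaled for the size of the library. Groups were compared with limma on log2(normalized count + 1) across the 21126 genes with a mean of at least 1, which included all 9 adhesion genes, and p-values were adjusted over all 21126 by the Benjamini and Hochberg method. Some hearts of the miR-19a/19b group stood apart. The sum of 10 skeletal muscle genes came to 3124 normalized counts in miR-19a/19b replicate 1 against 34.16 to 46.42 in control hearts. That heart also had the lowest neutrophil markers, at a mean of -1.23 relative to the control mean on the log2 scale. On the same scale cardiomyocyte markers were at 0.50 and 0.40 in replicates 1 and 2 and at -0.96 in replicate 3.

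*Spn* (ENSMUSG00000051457, chr7:127132232-127137823) had 333.8, 334.7 and 326.0 normalized counts in control hearts and 194.7, 188.7 and 236.0 in miR-19a/19b hearts. Every miR-19a/19b heart lay below every control heart, and the control hearts differed by less than 10 counts. The log2 fold change was -0.69 (standard error 0.13) in limma, with an unadjusted p = 0.000453, the 16th smallest of all genes, and an adjusted p = 0.547. On whole reads recovered from the deposited values, DESeq2's Wald test gave -0.68 (standard error 0.16, adjusted p = 0.0145) and edgeR's exact test an adjusted p = 0.0289, while edgeR's quasi-likelihood test and limma-voom gave 0.585 and 0.584. The call therefore depends on the test, with adjusted p-values from 0.011 to 1 over all alternatives. The lower value of 0.011 came without miR-19a/19b replicate 3, where the log2 fold change was -0.79. When any single heart was dropped, the log2 fold change stayed between -0.79 and -0.63, and without replicate 1, the heart with skeletal muscle RNA, it was -0.65. Adjusted p-values from limma were 0.999 to 1 when a heart other than miR-19a/19b replicate 3 was dropped.

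**Figure D1:**
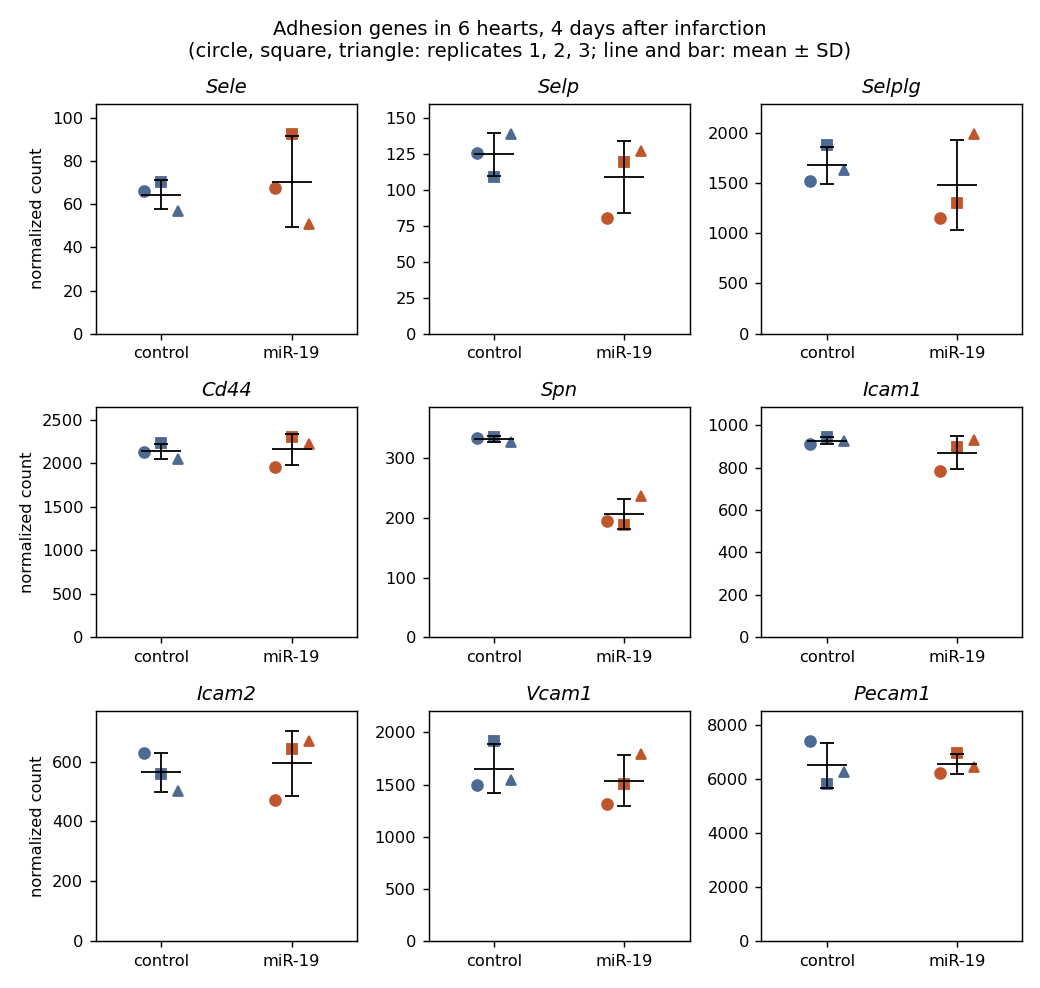
Normalized counts (vertical axes, each from 0) of the 9 adhesion genes in 3 control mimic and 3 miR-19a/19b mimic hearts; symbols are replicates 1, 2 and 3, and the line and bar are the mean ± SD. The groups are apart in *Spn*, at 326.0 to 334.7 against 188.7 to 236.0, and overlap in the other 8 genes.

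Among the 9 genes, 0 had an adjusted p-value under 0.05 in limma, where 0% of all genes tested did. Only *Spn* had an unadjusted p-value under 0.05 and was lower, where 2.63% of all genes were lower and 1.39% higher at that threshold. DESeq2 called 1 of the 9, again *Spn*, and called 0.184% of 14702 genes lower. The groups did not overlap for 1 gene, lower, and for 0 genes, higher, against 5.30% and 3.90% of all genes. Of the 9, 5 were lower and 4 higher, with a median log2 fold change of -0.09, where 49.2% of all genes were lower and their median was 0.004.

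*Selplg* (ENSMUSG00000048163, chr5:113818536-113832644), which encodes the main ligand of P-selectin on leukocytes, had 1516, 1875 and 1632 normalized counts in control hearts and 1149, 1304 and 1989 in miR-19a/19b hearts. Replicates 1 and 2 of the miR-19a/19b group were below all controls and replicate 3 was above them all. The log2 fold change was -0.21 (95% interval -0.65 to 0.22, adjusted p = 0.9996 from limma). Without replicate 3 it was -0.45 with an unadjusted p = 0.00182 and an adjusted p = 0.0592 from limma, in a fit where 1293 of 21126 genes were lower and 1777 higher at an unadjusted p-value under 0.05. Without replicate 1 it was -0.05, so these hearts move the value in opposite directions. *Cd44* (ENSMUSG00000005087, chr2:102811141-102901665), the receptor for hyaluronan and on leukocytes also a ligand of E-selectin, was the steadiest of the 9. It had 2131, 2230 and 2052 normalized counts in control hearts and 1959, 2299 and 2222 in miR-19a/19b hearts, a log2 fold change of 0.01 (95% interval -0.22 to 0.25).

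The ligands were set beside the pan-leukocyte gene *Ptprc* (CD45) within each heart, a comparison made with their values already known. *Ptprc* itself had 2601 ± 347 (SD, n = 3) normalized counts in control and 2057 ± 467 in miR-19a/19b hearts, a log2 fold change of -0.35 (adjusted p = 0.9996 from limma). *Spn* stood at 14.6, 11.3 and 12.8 counts per 100 of *Ptprc* in control hearts and at 11.5, 10.0 and 9.13 in miR-19a/19b hearts, and on this ratio the groups overlapped. *Selplg* stood at 66.2, 63.0 and 64.3 per 100 of *Ptprc* in control hearts and at 67.6, 69.2 and 76.9 in miR-19a/19b hearts, slightly higher in each. *Cd44* stood at 93.1, 75 and 80.8 per 100 of *Ptprc* in control hearts and at 115, 122 and 85.9 in miR-19a/19b hearts. The *Cd44* ratios overlapped between groups, with means of 82.9 in control and 108 in miR-19a/19b hearts. Per 100 counts of *Selplg*, *Spn* was at 22, 17.9 and 20 in control hearts and at 16.9, 14.5 and 11.9 in miR-19a/19b hearts, so this ratio was lower in every miR-19a/19b heart than in any control heart. These ratios were not tested.

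*Sele* (ENSMUSG00000026582, chr1:164048234-164057677), which endothelium makes on activation, was the scarcest of the 9. It had 66.31, 70.27 and 56.99 normalized counts in control hearts and 67.78, 92.79 and 51.00 in miR-19a/19b hearts. Both the highest and the lowest of the 6 hearts were in the miR-19a/19b group, and the log2 fold change of 0.09 (95% interval -0.46 to 0.64) turned to -0.13 without replicate 2. The neighbouring *Selp* (ENSMUSG00000026580, chr1:164115264-164150026), which endothelium and platelets store in granules, had 126.0, 109.3 and 139.2 normalized counts in control hearts and 80.69, 119.6 and 127.1 in miR-19a/19b hearts. Only miR-19a/19b replicate 1 was below the controls. The log2 fold change of -0.21 (95% interval -0.68 to 0.25) became -0.01 without that heart.

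*Icam1* (ENSMUSG00000037405, chr9:21015960-21028797), the ligand of the leukocyte integrins LFA-1 and Mac-1, had 911.8, 942.7 and 924.9 normalized counts in control hearts and 784.3, 898.0 and 930.1 in miR-19a/19b hearts. The coefficient of variation was 1.68% in control hearts and 8.80% in the miR-19a/19b group, and replicate 1 was again the lowest. Its log2 fold change was -0.09 (95% interval -0.32 to 0.14). *Icam2* (ENSMUSG00000001029, chr11:106377656-106388075), which resting endothelium already carries, had 630.0, 560.2 and 501.7 normalized counts in control hearts and 471.2, 641.3 and 669.9 in miR-19a/19b hearts. Replicates 2 and 3 of the miR-19a/19b group were above all controls and replicate 1 was below them, and the log2 fold change was 0.06 (95% interval -0.29 to 0.42).

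*Vcam1* (ENSMUSG00000027962, chr3:116109949-116129688), the ligand of the integrin VLA-4, had 1492, 1919 and 1539 normalized counts in control hearts and 1317, 1504 and 1795 in miR-19a/19b hearts. The spread within each group was larger than the difference between them, at a log2 fold change of -0.10 (95% interval -0.43 to 0.23). *Pecam1* (ENSMUSG00000020717, chr11:106654217-106750628), a molecule of endothelial junctions that platelets and leukocytes also carry, had 7414, 5829 and 6266 normalized counts in control hearts and 6236, 6963 and 6434 in miR-19a/19b hearts. All 3 miR-19a/19b hearts lay within the control range, and the log2 fold change was 0.02 (95% interval -0.28 to 0.31). For these 8 genes the intervals leave room for changes of 0.63 to 1.56 fold at the widest ends, so a missed threshold does not show that the groups are alike.

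**Figure D2:**
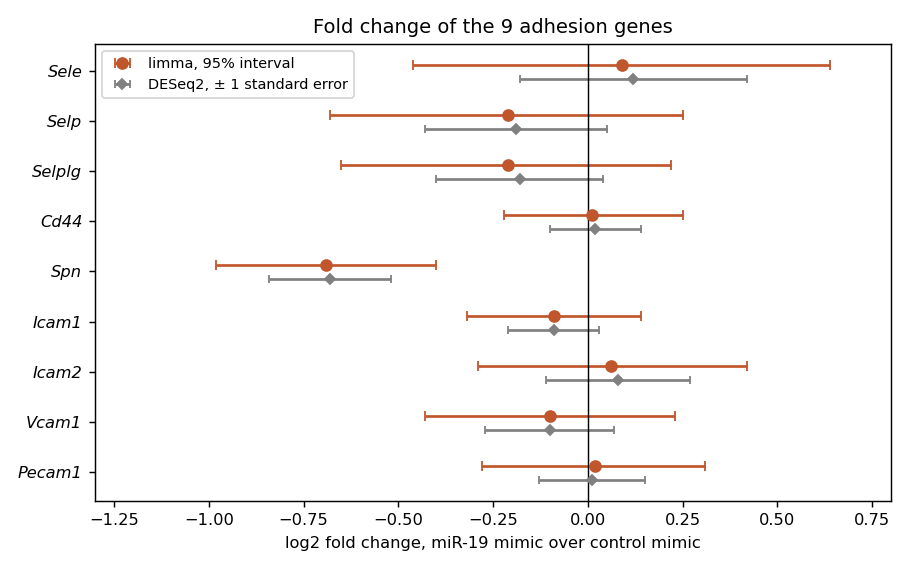
Log2 fold change of miR-19a/19b mimic over control mimic hearts (horizontal axis) for each gene, from limma with its 95% interval and from DESeq2 with 1 standard error either side. The limma interval of *Spn*, -0.98 to -0.40, is the one that does not include 0.

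Levels can be compared between genes only per length. Divided by the gene length given in the file, *Pecam1* led at 1047 ± 91.5 (SD, n = 6) normalized counts per kilobase. *Selplg*, *Icam1*, *Cd44* and *Icam2* followed between 304 and 369 per kilobase, and in that order each neighbour's hearts overlapped. *Vcam1* came next at 180 ± 24.9 per kilobase and *Spn* at 57.5 ± 15.1, each separated from its neighbours in every heart. The selectins were last and overlapped, *Selp* at 26.5 ± 4.60 and *Sele* at 23.2 ± 4.93 per kilobase, so *Pecam1* was 45.1 times *Sele* on this scale. The length is a single value per gene, such as 8870 bases for *Vcam1* and 2540 for *Icam1*. Which transcripts were present was not measured, so the order and the gaps between genes depend on these lengths.

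**Figure D3:**
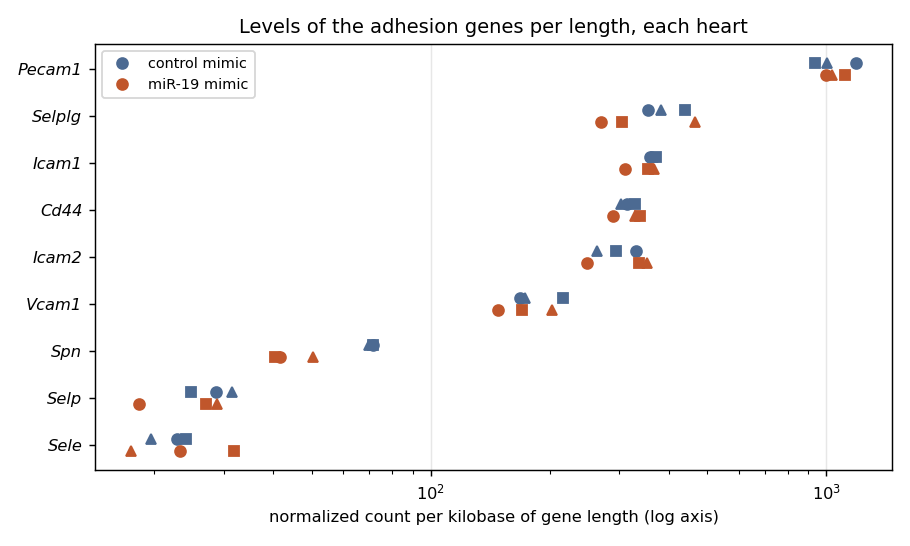
Normalized counts per kilobase of gene length (log axis) for each gene in each heart, with control hearts above and miR-19a/19b hearts below in each row. *Pecam1*, at 936 to 1190, is apart from all others, and *Selp* and *Sele* share the range from 17.5 to 31.9.

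The hearts did not depart from control in one direction. miR-19a/19b replicate 1 was the lowest of the 6 hearts for 6 of the 9 genes and was below the control mean for 8 of them, with a median of -0.25 on the log2 scale. Replicates 2 and 3 had medians of -0.04 and 0.03. Relative to the control mean, *Selplg* was at -0.54, -0.35 and 0.25 in miR-19a/19b replicates 1, 2 and 3, and the mean of 8 pan-leukocyte markers was at -0.50, -0.25 and 0.19. For *Pecam1* these values were -0.05, 0.11 and -0.01, and for 14 endothelial markers -0.04, 0.04 and 0.00. *Spn* was at -0.76, -0.81 and -0.49, below the control mean in all 3. So were monocyte and macrophage markers, at -0.58, -0.30 and -0.03, and T cell markers, at -0.27, -0.31 and -0.33, whereas the pan-leukocyte markers were above it in replicate 3. Control hearts were at 0.01, 0.01 and -0.02 for *Spn*. They were at -0.02, 0.12 and -0.10 for monocyte and macrophage markers and at 0.26, 0.08 and -0.34 for T cell markers. The means of both marker lists therefore overlapped between groups. For some single genes of these lists, among them *Ly6c2*, *Ccr2* and *Lck*, the groups did not overlap, and for the others they did. With the endothelial marker mean, r over the 6 hearts was 0.94 for *Pecam1*, 0.60 for *Icam2* and 0.22 for *Selp*. It was 0.21 for *Sele*, 0.06 for *Icam1* and -0.28 for *Vcam1*. With the pan-leukocyte mean, r for these genes in the same order was -0.21, 0.56, 0.57, -0.41, 0.87 and 0.95. Whether cell content contributes to these values was not tested.

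**Figure D4:**
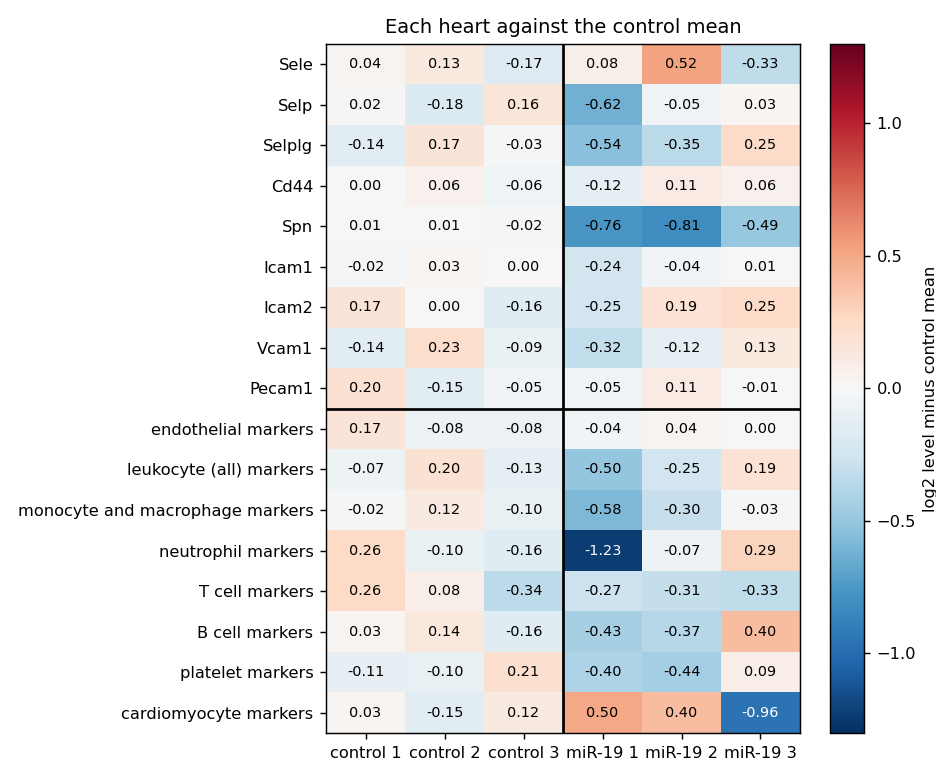
Each heart's log2 level minus the control mean for the 9 genes (top) and for the mean of 8 marker lists (bottom), blue lower and red higher. The *Spn* row is low in all 3 miR-19a/19b hearts, while the *Selplg* and pan-leukocyte rows turn from -0.54 and -0.50 in replicate 1 to 0.25 and 0.19 in replicate 3.

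The cell types that carry these genes were followed by lists of markers, of which none was at 0 in all hearts. Over all genes tested in limma, 2.63% were lower at an unadjusted p-value under 0.05, and 5.30% were lower without overlap. Exact two-sided permutation tests of each summed marker list gave p between 0.2 and 1, where 0.1 is the smallest p that 3 hearts against 3 allow. Endothelial markers summed to 39253 to 48198 normalized counts in control hearts and 41997 to 43015 in miR-19a/19b hearts, with 0 of 14 at an unadjusted p-value under 0.05. Pan-leukocyte markers summed to 24060 to 29996 and 19267 to 30916, with 0 of 8 at that threshold. Monocyte and macrophage markers summed to 83929 to 97543 and 67353 to 103254, and 2 of 12 were lower at an unadjusted p-value under 0.05. These were *Ly6c2*, a surface protein of inflammatory monocytes, with 817.9, 747.6 and 465.2 normalized counts in control and 148.5, 268.1 and 176.3 in miR-19a/19b hearts, and the chemokine receptor *Ccr2*, with 2525, 2652 and 2079 against 1489, 1593 and 1942. Neither pair of groups overlapped, and limma gave adjusted p-values of 0.396 and 0.886. Neutrophil markers summed to 2841 to 3491 and 1847 to 4259 (1 of 10 lower, *Retnlg*, log2 fold change -1.52, adjusted p = 0.9996 from limma), and T cell markers to 2378 to 2529 and 2129 to 2533 (1 of 10 lower, *Lck*, log2 fold change -0.64, adjusted p = 0.9996 from limma). All these sums overlapped between groups. Most of the T cell sum was *Thy1*, at 1923 ± 111 (SD, n = 3) in control and 1847 ± 181 in miR-19a/19b hearts. That sum and its test therefore follow mainly this gene and say little about the other T cell markers. B cell markers (488.6 to 631.4 and 374.4 to 695.0), platelet markers (2493 to 3571 and 2588 to 5479) and fibroblast markers (508929 to 623155 and 440991 to 703617) overlapped as well, with 0 genes at an unadjusted p-value under 0.05. So did cardiomyocyte markers (509054 to 648291 and 308270 to 890974, 1 of 10 lower, *Nppa*, log2 fold change -0.94) and markers of smooth muscle and pericytes (36699 to 47757 and 36075 to 41021, 1 of 8 lower, *Cnn1*, log2 fold change -0.62). *Blnk*, with a control mean of 360.3, made up most of the B cell sum. *Pf4*, with a control mean of 2562, made up most of the platelet sum, and *Col1a1* and *Col3a1* most of the fibroblast sum. These sums also say little about the other markers of their lists.

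The partners of the 9 genes were then described by role. Over all genes tested in limma, 49.2% were lower, and at an unadjusted p-value under 0.05, 2.63% were lower and 1.39% higher. Groups did not overlap for 5.30% of all genes, lower, and for 3.90%, higher. The counts of lower and higher genes in each list were not tested. Of 9 leukocyte integrin chains, 8 were lower and 1 higher, with a median log2 fold change of -0.19. One had an unadjusted p-value under 0.05, *Itgal*, the alpha chain of LFA-1, which binds ICAM-1 and ICAM-2. *Itgal* had 320.5, 242.0 and 277.5 normalized counts in control hearts and 148.5, 161.9 and 221.3 in miR-19a/19b hearts, with no overlap, and limma put the difference at -0.67 ± 0.18 on the log2 scale (estimate ± standard error, adjusted p = 0.947). Its partner chain *Itgb2* had 3450 ± 48.0 (SD, n = 3) and 3209 ± 977 normalized counts, and *Itgam*, the alpha chain of Mac-1, 1310 ± 142 and 1208 ± 369, both overlapping. The next smallest p-values in this list were those of *Itga9* (log2 fold change -0.35) and *Itgb7* (-0.36).

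Of 7 other selectin-binding and homing molecules, 5 were tested, of which 3 were lower and 2 higher, with a median of -0.03. *Cd24a*, a small mucin that can bind P-selectin, had 789.1, 692.9 and 729.6 normalized counts in control hearts and 468.0, 527.9 and 597.3 in miR-19a/19b hearts, without overlap and with a difference of -0.48 ± 0.12 on the log2 scale (adjusted p = 0.877 in limma). *Glg1*, which encodes an E-selectin ligand, was at -0.06 and the sialomucin gene *Podxl* at 0.05. Of 13 genes for the glycosylation of selectin ligands, 10 were lower and 3 higher with a median of -0.05, and 0 had an unadjusted p-value under 0.05. The fucosyltransferase *Fut4* was at -0.39, *Gcnt1* at -0.20 and *Galnt1* at -0.06.

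Of 15 genes of integrin activation and of the links to the cell cortex, 12 were lower and 3 higher with a median of -0.11. *Skap1*, a T cell adaptor for integrin activation, was lower (12.16, 15.61 and 14.95 normalized counts against 5.38, 8.25 and 4.32, log2 fold change -1.16, adjusted p = 0.9996 from limma). *Ezr*, which ties CD43 and CD44 to actin, was higher, at 1389, 1171 and 1413 against 1582, 1688 and 1471 (log2 fold change 0.26, unadjusted p = 0.0465 and adjusted p = 0.9996 from limma). *Msn* (moesin), of the same family of linkers, had 19607, 19793 and 19730 normalized counts in control hearts and 16586, 15838 and 16805 in miR-19a/19b hearts, without overlap, at a log2 fold change of -0.26 (unadjusted p = 0.0818 and adjusted p = 0.9996 from limma). Of 14 tested genes of endothelial junctions and transmigration, 9 were lower and 5 higher with a median of -0.04, and 0 had an unadjusted p-value under 0.05. The smallest p-values there were those of *Icam4*, *Jam2* and *F11r*, at 0.72, -0.15 and -0.09.

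Among 20 genes of NF-κB and the cytokines that induce *Sele*, *Icam1* and *Vcam1*, 15 were lower and 5 higher with a median of -0.10. The NF-κB subunit *Rel* had 455.4, 490.9 and 471.8 normalized counts in control hearts and 384.1, 384.6 and 402.8 in miR-19a/19b hearts, without overlap (log2 fold change -0.27, unadjusted p = 0.0227 and adjusted p = 0.9996 from limma). The inhibitors *Nfkbie* and *Nfkbia* were at -0.35 and 0.19. The cytokine *Tnf* had 41.98 ± 20.5 (SD, n = 3) and 34.55 ± 15.5 normalized counts, and *Il1b* 137.5 ± 71.9 and 103.7 ± 56.3, both within the spread. Of 10 genes of hyaluronan and the ligands of CD44, 5 were lower and 5 higher with a median of -0.01. *Cemip*, which takes part in the breakdown of hyaluronan, had 1221, 1009 and 1852 against 889.8, 585.6 and 783.2 normalized counts (-0.83 ± 0.23 on the log2 scale, adjusted p = 0.948 in limma), and *Has1* and *Vcan* were at 0.75 and -0.19. Summed over their genes, the leukocyte integrins came to 34065 to 36846 normalized counts in control hearts and 30288 to 31047 in miR-19a/19b hearts, and the genes of integrin activation and cortical links to 54147 to 56095 and 46575 to 52967. Both sums were lower in the miR-19a/19b group without overlap, and the sums of the other 5 lists overlapped. *Itgb1* alone, with means of 25878 in control and 22614 in miR-19a/19b hearts, made up most of the integrin sum. *Msn* and *Tln1* made up most of the other. With each gene weighed alike, as the mean log2 deviation from control, both lists overlapped. The integrins were then at -0.05, -0.13 and 0.18 in control and at -0.42, -0.14 and 0.00 in miR-19a/19b hearts. Over these 7 lists, 0 genes had an adjusted p-value under 0.05 in limma.

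**Figure D5:**
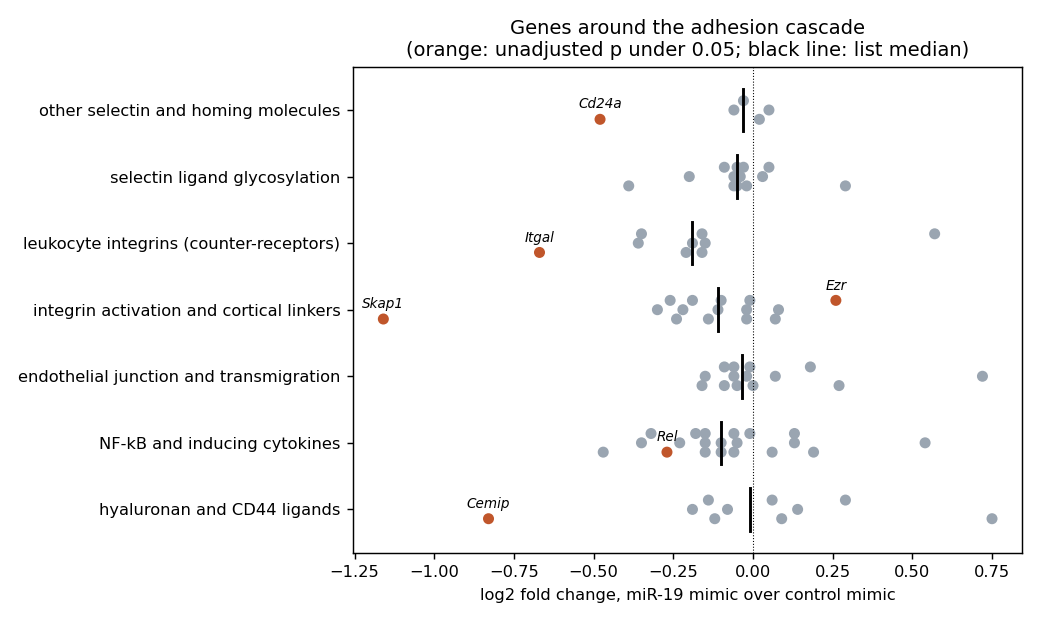
Log2 fold change of miR-19a/19b mimic over control mimic hearts (horizontal axis) for the genes of 7 lists around the adhesion cascade; orange marks an unadjusted p-value under 0.05 and the black line the list median. The genes *Cd24a* and *Itgal* lie at -0.48 and -0.67, and genes of endothelial junctions lie around a median of -0.04.

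Promoters were searched for the NF-κB motif GGGNNNNNCC on both strands, from 250 bases before to 50 bases after each start (RefSeq, GRCm38.p6). A promoter was at hand for 5 of the 9 genes, *Sele*, *Selp*, *Cd44*, *Spn* and *Icam1*, and all 5 held the motif. So did 50.8% of all 32851 promoters, and these letters alone do not mark a site. On the strand of the gene alone, 3 of the 5 held it, against 38.0% of all.

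The genes whose pattern over the 6 hearts was most like each member were sought among 11608 others with a mean of at least 100, by Pearson's r on the log2 scale. All points share library and depth, and with 6 hearts these values are a description. For *Spn* they were *Ncs1* (r = 0.990) and the MHC class II gene *H2-Eb1* (r = 0.984), which had a log2 fold change of -0.51. *Vcam1* was most like *Gnai3* (0.995) and the macrophage complement gene *C1qb* (0.994), *Selplg* like *Tspan14* (0.995) and *Slc25a24* (0.994), and *Icam1* like *Bzw1* (0.990) and *Arhgap15* (0.986). *Icam2* was most like *Snhg5* (0.995) and *Zkscan6* (0.988), *Cd44* like *Rpain* (0.991) and *Nufip1* (0.990), *Pecam1* like *S100a13* (0.978) and *Eef1e1* (0.975), *Sele* like *Lin7c* (0.987) and *Them4* (0.980), and *Selp* like *Tmem87a* (0.973) and *Zcchc9* (0.971).

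Some reads may be shared with other genes. Transcripts of *Spn*, *Sele*, *Cd44* and *Icam2* had 0 alignments of at least 100 bases at 90% identity to other genes. *Selp* had 2, of at most 325 bases, and *Icam1* had at least 427, because the number of hits kept was limited. The longest for *Icam1* was to the antisense transcript of 511 bases that overlaps it. *Pecam1*, *Selplg*, *Vcam1* and, apart from that antisense transcript, *Icam1* each had stretches of at most 213 bases that recur in many genes. *Icam1*, *Selp* and *Vcam1* overlap antisense transcripts in exons, and strand-specific counting was not stated, so their counts are uncertain there.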

How the data were processed

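RNA-seq (poly-A selected, 150-base paired reads) was done on 3 control mimic and 3 miR-19a/19b mimic hearts. The authors aligned reads with STAR (2.5.1b) and counted them with HTSeq (0.6.0), as the submitters' notes and methods state, the notes also list DESeq2 (1.10.1) without its role, and the methods name edgeR for differential expression. The values the authors deposited (unit signal) are gene counts scaled by library, with size factors of 0.9048 to 1.157. In each library 100% of values were whole multiples of 1 read (tolerance 0.01), so reads were recovered. Deposited fold changes and p-values were not used. The notes name mm9, but 99.94% of 25884 identifiers were on the same chromosome and 82.7% had the same start and end in GENCODE M21, so positions are on GRCm38.

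The fit was limma (3.58.1, in R 4.3.3) over 21126 genes with a mean of at least 1, using log2(normalized count + 1) and a trended prior, and was tested on simulated data. Alternatives on recovered reads used edgeR (4.0.16) and DESeq2 (1.42.0). Copies were sought with BLAST (2.17.0). P-values measure the spread between these hearts, described in the methods as biological replicates. Exact permutation tests of 3 hearts against 3 are given for the marker lists only. Named genes are the 9 members, the 3 genes with the smallest p-values in each list around the cascade, and the 2 most alike by r. The same rule covers the marker lists, of which the text names *Ptprc* and the genes with an unadjusted p-value under 0.05 outside skeletal muscle. The rest are given by their sums. *Itgb1*, *Itgb2*, *Itgam*, *Tln1*, *Thy1*, *Tnf*, *Il1b*, *Blnk*, *Pf4*, *Col1a1* and *Col3a1* were added after their values were seen. Some genes of the lists are not reported here and were left out of the counts. The members and lists were chosen with earlier results of these data known.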

Additional observations from a re-analysis of the deposited data

How the results depend on the processing

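Over 17 alternatives that refitted the groups, 139 of 153 fold changes of single genes kept their direction and side of the threshold, and the median of the 9 genes lay between -0.14 and 0.00. The number of adhesion genes with an adjusted p-value under 0.05, 0 in limma, was 1 (*Spn*) with DESeq2 and with edgeR's exact test, and 1 at an unadjusted threshold. Over all genes, the counts of 0 lower and 0 higher became 27 and 1 with DESeq2, 28 and 2 with the exact test, 1 and 3 without a trended prior, and 555 and 293 at the unadjusted threshold. The cause of these differences was not tested. With 1 heart left out, adhesion genes called ranged from 0 to 1 and those with an unadjusted p-value under 0.05 from 1 to 2, lower genes from 0 to 154 and higher genes from 0 to 361, each upper value without miR-19a/19b replicate 3. *Spn* kept an unadjusted p-value of at most 0.00288 in every alternative, between log2 fold changes of -0.79 and -0.63. Direction turned when 1 heart was left out for *Sele* (-0.13 to 0.30), *Cd44* (-0.03 to 0.08), *Icam2* (-0.03 to 0.22), *Vcam1* (-0.22 to 0.01) and *Pecam1* (-0.06 to 0.11).

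Hearts with the same replicate number did not deviate together (correlations of -0.0195, -0.168 and -0.289), and the labels do not state a pairing. Each deviation was taken from its own group's mean over few hearts, so these correlations cannot exclude a shared day or batch. With the replicate number as a block, 0 genes were called lower or higher and *Spn* was at -0.69 (adjusted p = 0.9999 from limma), and the number of genes with an unadjusted p-value under 0.05 was 434 lower and 207 higher. The count of genes with a miR-19 seed match went from 0 to 2 when all annotated 3′ UTRs were searched, and that with the NF-κB motif went from 5 to 3 on the gene's own strand alone.

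*Sele* and *Selp* rest on 51.00 to 139.2 normalized counts per heart, and their intervals are the widest of the 9.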
